A study of Caenorhabditis elegans with 6 samples.

Results

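The homeobox genes named ceh and a number encode transcription factors that bind DNA through a homeodomain, a short folded domain of helices. The set was taken as the protein-coding genes with such a symbol that were above 0 FPKM in any library, apart from 2 genes (ceh-16 and ceh-60) left out by the rule. FPKM counts fragments per length of transcript and per size of the library, so levels can be set side by side between genes. The rule met 62 genes, of which 60 were above 0, among 22268 features above 0 in all, and ceh-82 and ceh-84 were listed at 0 throughout. Of the 60, 51 had a mean of at least 1 FPKM over the libraries and were tested, and 9 were below it. RNA came from Caenorhabditis elegans larvae that were synchronised with bleach and raised on standard plates until the middle of the L3 larval stage. The 2 groups of 3 libraries each were N2 Bristol, the wild type (WT), and blmp-1(tm548) mutants. The BLMP-1 protein is the worm homolog of Blimp-1, a zinc-finger repressor, and what tm548 takes away from the locus is not in the labels. The series calls the libraries biological replicates, and how their cultures were separated is not stated, so p-values measure the spread between these samples.

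Homeodomain proteins in the worm act mostly as selectors of cell identity. Most are made in a small number of cells, often single classes of neurons, pharyngeal or gonadal cells, and many keep the identity of a neuron class through life. In RNA of a whole animal such a transcript is diluted by all other cells, and fewer expressing cells and less RNA per cell cannot be told apart. Several classes can be recognised by the sequence of the homeodomain or by a second domain beside it: CUT, POU, sine oculis-like, LIM, NK-like, paired-like and PBC proteins. Of the 60 genes 38 were put into such classes from general knowledge, and 22 were left without a class.

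The FPKM values were scaled to about 7430000 to 8000000 reads per library, estimated from the steps between low values and the exon lengths. This total may differ from the number of reads sequenced. In many members the 6 values were whole multiples of 1 read to within 0.03 reads, which gave the number of reads for 41 of the 60 genes. The steps give these numbers up to a common factor per gene. Of the matching steps near the one expected from the exon length, the largest was taken. The numbers are thus the fewest reads that match in the range searched, and may be too low. Intervals on them cover counting error only. The transcript of blmp-1 (F25D7.3) itself was at 64.9, 71.1 and 75.2 FPKM in WT replicates 1, 2 and 3. In mutant replicates 1, 2 and 3 it was at 40.3, 36.9 and 37.96 FPKM, and it fell (log2 difference -0.86, limma adjusted p = 0.00299). This checks the labels in part, since the removed stretch is unknown here. Between libraries of 1 group the median absolute log2 difference over all tested features was 0.0984 to 0.183, and between groups it was 0.162 to 0.215. Marker lists for neurons, pharyngeal and body wall muscle, epidermis, intestine, germline, oocytes, sperm and gonad had no gene at 0 throughout. In these lists che-14, an epidermal gene for apical secretion, was the only gene that passed the test, and the summed level of 10 neuronal markers was 612 to 617 FPKM in WT and 611 to 642 FPKM in the mutant.

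The ceh genes were mostly present at low to middling levels. Their median was 9.16 FPKM, against 23.6 FPKM for 18545 protein-coding genes above 0. In 17 genes the mean was at least 20 FPKM, 20 lay between 5 and 20 FPKM, 14 between 1 and 5 FPKM and 9 below 1 FPKM. The highest mean was that of ceh-20, at 76.5 FPKM, and 81.3% of protein-coding genes were below it. Levels in the 60 genes spanned from this value to 0.0336 FPKM for ceh-75, and 53 were above 0 in every library.

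**Figure D1:**
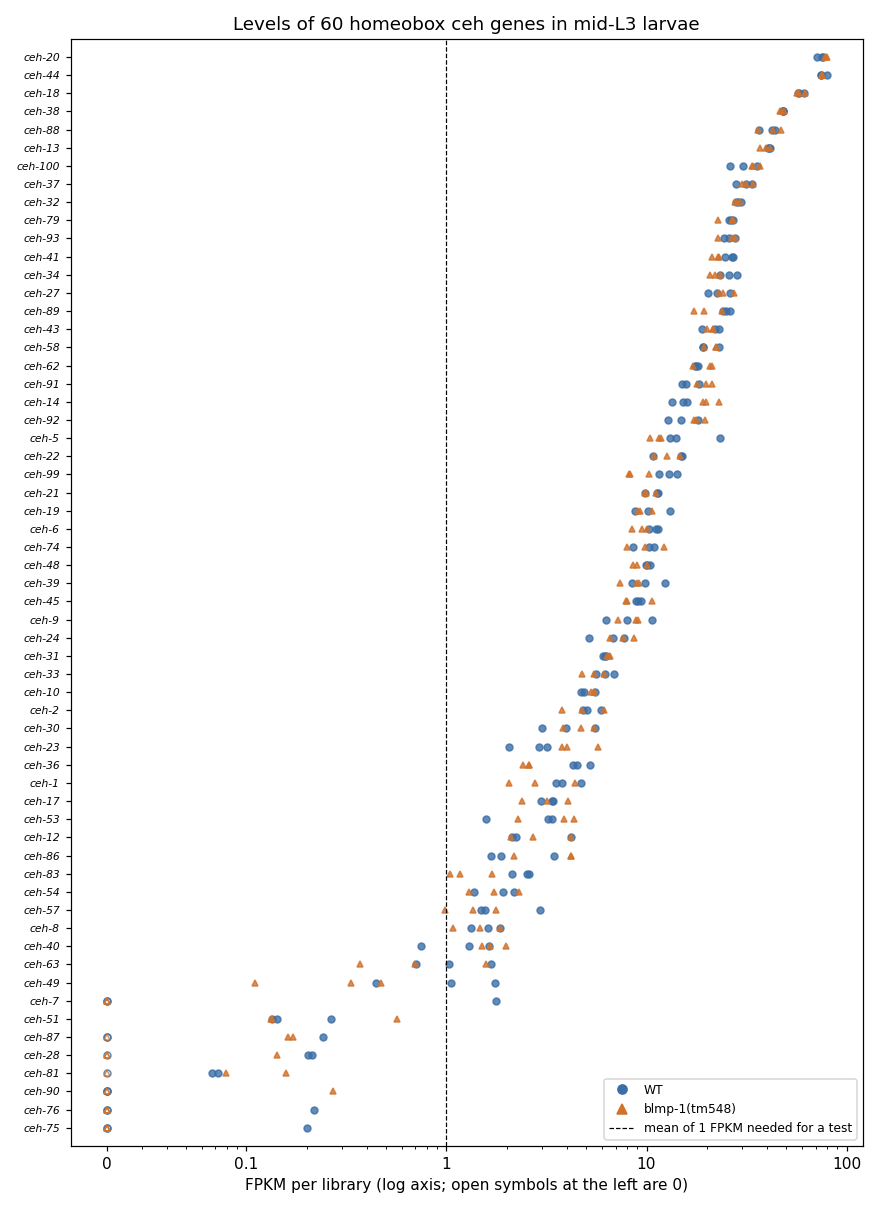
FPKM of each of the 60 ceh genes in each library on a log axis, ordered by the mean over the 6 libraries; circles are WT, triangles the mutant, open symbols values of 0, and the dashed line is at 1 FPKM. The libraries of the 2 genotypes lie together for most genes, and the spread on the log axis widens toward the low genes.

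Mutant and WT libraries were compared to see which transcripts differ when blmp-1 is mutated. No ceh gene passed in either direction (0 of 51 in limma with log2(FPKM + 1) values from 3 libraries per group, where a call needs an adjusted p under 0.05 over 17058 features). Over all tested features 6.40% passed, 3.34% higher and 3.06% lower in the mutant. At an unadjusted p under 0.05 there were 7 of the 51, against 23.0% of all features, and the 2 groups of libraries did not overlap for 11, against 28.7%. Among these 11, ceh-14, ceh-20, ceh-23 and ceh-31 were the ones with all mutant values above the WT values, and in ceh-5, ceh-6, ceh-36, ceh-41, ceh-83, ceh-89 and ceh-99 they were below. Whether the shares of the ceh genes differ from those of all features was not tested. Fold changes here are on the log2(FPKM + 1) scale, which understates differences of low genes. The median log2 difference of the 51 was -0.02 and that of all tested features 0.00, and differences ran from -0.68 for ceh-36 to 0.56 for ceh-23. Summed over the 60 genes the level was 863 to 891 FPKM in the WT libraries and 860 to 891 FPKM in the mutant libraries. With library weights, a fit that gives single libraries more or less say, 6 ceh genes passed (24.1% of all features did): ceh-14, ceh-23, ceh-86 and ceh-91 higher, and ceh-36 and ceh-99 lower. With the 14974 protein-coding genes of at least 300 nt tested alone, 1232 passed. Among the 51 ceh genes in that fit 1 passed, ceh-36, lower in the mutant (adjusted p = 0.0488).

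A missed threshold does not show that levels were equal, so the intervals matter. For 43 of the 51 the 95% interval of the log2 difference lay inside -1 to 1, and for 25 inside -0.5 to 0.5. These bounds are on the log2(FPKM + 1) scale, where for low genes they stand for larger fold changes in FPKM. Of the 17 genes with a mean of 20 FPKM or more 16 had an interval inside -0.5 to 0.5. Intervals that reached past 1 or -1 were those of ceh-5, ceh-23, ceh-36, ceh-53, ceh-57, ceh-63, ceh-83 and ceh-86. For each of these 8 genes a log2 difference of 1 in the direction of its estimate lies within the interval. The median standard error was 0.0914 for the 17 genes from 20 FPKM on and 0.253 for the 14 genes under 5 FPKM.

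**Figure D2:**
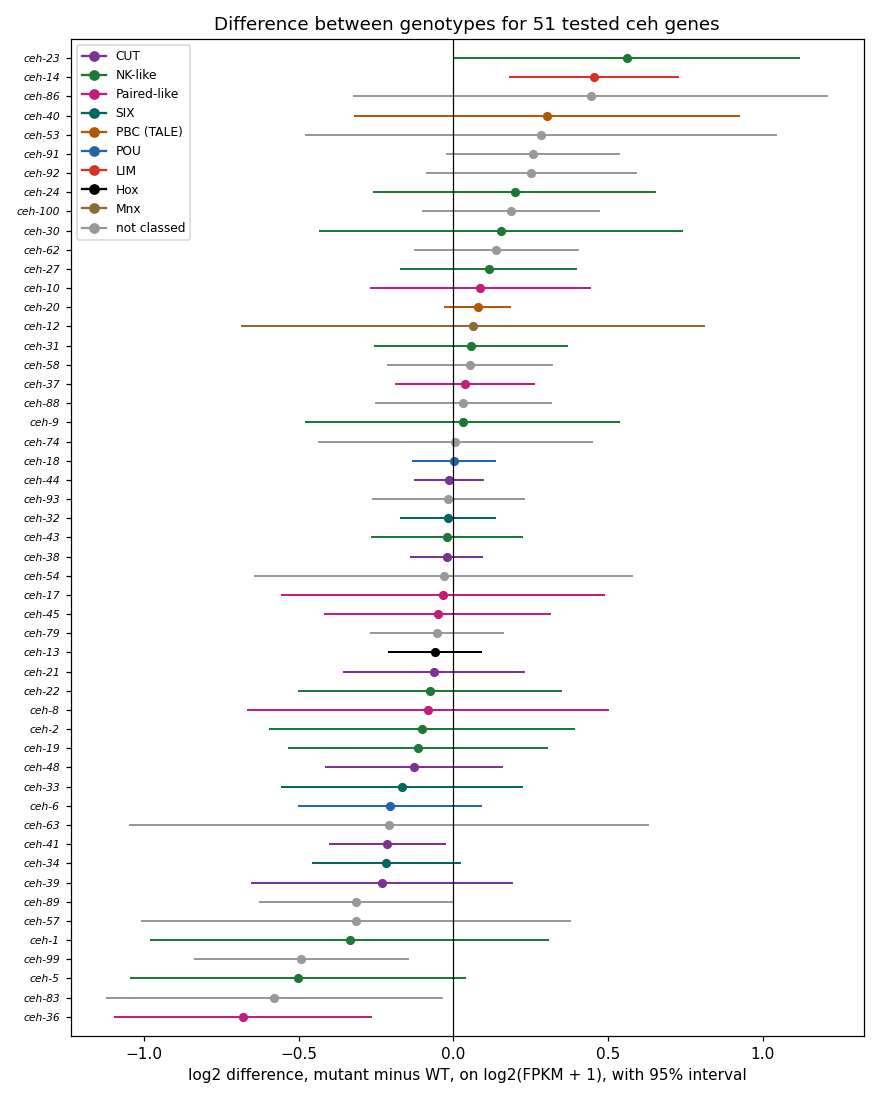
Log2 difference of mutant minus WT on the log2(FPKM + 1) scale for the 51 tested ceh genes, with the 95% interval of the limma fit as a line and the homeobox class as the colour. The points run from -0.68 for ceh-36 to 0.56 for ceh-23 and none passed the adjusted threshold.

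The gene ceh-20 (F31E3.1), a Pbx homolog of the PBC class that binds DNA together with Hox proteins, had the highest level of the family. It was at 76.2, 71.4 and 75.6 FPKM in WT replicates 1, 2 and 3 and at 77.9, 79.4 and 78.5 FPKM in mutant replicates 1, 2 and 3. The groups did not overlap, but the difference was small (log2 difference 0.08, 95% interval -0.03 to 0.18, adjusted p = 0.344). The second PBC gene, ceh-40, which acts in part redundantly with ceh-20, was at 1.23 ± 0.445 FPKM in WT and 1.71 ± 0.255 FPKM in the mutant (SD, n = 3), from 6 to 17 reads per library (log2 difference 0.30, adjusted p = 0.531). With 1 library left out the difference of ceh-40 ran from 0.14 (without WT replicate 2) to 0.43 (without WT replicate 1). Thus the pair stood at opposite ends of the tested levels. The single Hox gene with a ceh name, ceh-13 (R13A5.5), is the worm labial gene and acts in anterior patterning. It was at 41.6, 41.02 and 40.4 FPKM in WT and at 39.7, 36.95 and 41.3 FPKM in the mutant. Mutant replicate 3 lay within the WT values and the other 2 below them (log2 difference -0.06, interval -0.21 to 0.09, adjusted p = 0.611).

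The CUT genes carry a cut domain beside the homeodomain, and several of them are made in all neurons. There were 7 of them, 6 were tested and none passed. Each of the 6 had a negative log2 difference, from -0.23 to -0.01, with a median of -0.10. The row of ceh-44 (Y54F10AM.4) was at 74.3, 74.3 and 79.6 FPKM in WT and at 75.6, 75.05 and 75.2 FPKM in the mutant (interval -0.12 to 0.10, adjusted p = 0.894). Mutant values lay within the range of the WT values. This locus is shared: the Ensembl annotation calls the same row cone-1, and RefSeq lists cone-1 as an overlapping gene, so its FPKM cannot be credited to the homeobox transcript alone. The gene ceh-38 (F22D3.1), a broadly made CUT factor, was at 48.3, 48.2 and 48.04 FPKM in WT and at 46.8, 46.6 and 48.9 FPKM in the mutant (interval -0.14 to 0.09, adjusted p = 0.828). The neuronal CUT gene ceh-48 (C17H12.9) was at 10.1 ± 0.219 and 9.21 ± 0.798 FPKM (log2 difference -0.13, adjusted p = 0.563). With 1 library left out the difference of ceh-48 ran from -0.19 (without mutant replicate 2) to -0.08 (without mutant replicate 1). The groups of ceh-38 and of ceh-48 overlapped.

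The remaining CUT genes include a cluster on the X chromosome. The gene ceh-41 (T26C11.5) was at 26.95, 24.6 and 26.7 FPKM in WT and at 22.9, 22.9 and 21.3 FPKM in the mutant. Each mutant library was below each WT library, but the adjusted p was 0.168 (log2 difference -0.21, interval -0.40 to -0.03). Its direct neighbour ceh-21 (T26C11.6) was at 10.8 ± 0.860 and 10.3 ± 0.755 FPKM and its groups overlapped. The nearby ceh-39 (T26C11.7), which helps to count X chromosomes in sex determination in the embryo, was at 8.45, 9.85 and 12.3 FPKM in WT and at 9.14, 8.99 and 7.34 FPKM in the mutant (adjusted p = 0.487). The high value was that of WT replicate 3, with 163 reads against 92 to 124 in the other 5 libraries. The log2 difference of ceh-39 was -0.23, and it ran from -0.35 without WT replicate 1 to -0.10 without WT replicate 3. The seventh CUT gene, ceh-49 (F17A9.6), had a mean of 0.695 FPKM and was not tested. It was at 1.75, 1.06 and 0.447 FPKM in WT replicates 1, 2 and 3 and at 0.332, 0.111 and 0.472 FPKM in the mutant ones. These were 16, 9 and 4 reads in WT and 3, 1 and 4 reads in the mutant. Summed over the libraries that is 29 reads (exact Poisson 95% interval 19.4 to 41.7) against 8 reads (3.45 to 15.8). These intervals cover counting error only, not the spread between libraries, and hold only if the step taken is 1 read. The groups overlapped in WT replicate 3 and mutant replicate 3. In the fit with no filter on low values the adjusted p of ceh-49 was 0.257.

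LIM and paired-like factors held the members nearest to the threshold. The LIM homeobox gene ceh-14 (F46C8.5), a homolog of Lhx3 with a role in thermosensory and other neurons, was at 15.8, 15.2 and 13.4 FPKM in WT replicates 1, 2 and 3. In mutant replicates 1, 2 and 3 it was at 22.96, 19.2 and 19.9 FPKM, so that each mutant library lay above each WT library. These values rested on 134, 120 and 111 reads in WT and 192, 161 and 156 reads in the mutant. The log2 difference of ceh-14 was 0.46 (SE 0.112, interval 0.18 to 0.73), and the adjusted p of 0.0717 missed the threshold. It was 0.0157 to 0.219 over the 15 alternative settings, and passed in the fit with library weights.

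The paired-like gene ceh-36 (C37E2.4) encodes an Otx protein that sets the identity of the AWC and ASE chemosensory neurons. It was at 4.47, 4.28 and 5.21 FPKM in WT and at 2.58, 2.58 and 2.41 FPKM in the mutant. Each mutant library was below each WT library, with 28, 25 and 32 reads in WT and 16, 16 and 14 reads in the mutant. Summed, 85 reads (exact Poisson 95% interval 67.9 to 105) stood against 46 reads (33.7 to 61.4), where the intervals cover counting error only. The log2 difference of ceh-36 was -0.68 (SE 0.170, interval -1.09 to -0.27) with an adjusted p of 0.0746, and 0.02499 to 0.196 over 14 alternative settings. The direct neighbour of ceh-36 on the X chromosome is ceh-37 (C37E2.5), a further Otx gene that acts in the AWB olfactory neurons and binds telomeres. It was at 27.98, 31.5 and 33.8 FPKM in WT and at 33.97, 30.1 and 31.5 FPKM in the mutant (log2 difference 0.04, interval -0.18 to 0.26, adjusted p = 0.849). The groups of ceh-37 overlapped, and its mean level was 8.77 times that of ceh-36. The other paired-like genes were ceh-45 (goosecoid-like), ceh-10, ceh-17 and ceh-8, with means of 8.97, 5.22, 3.23 and 1.53 FPKM. Their log2 differences were -0.05, 0.09, -0.03 and -0.08, and their groups overlapped.

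**Figure D3:**
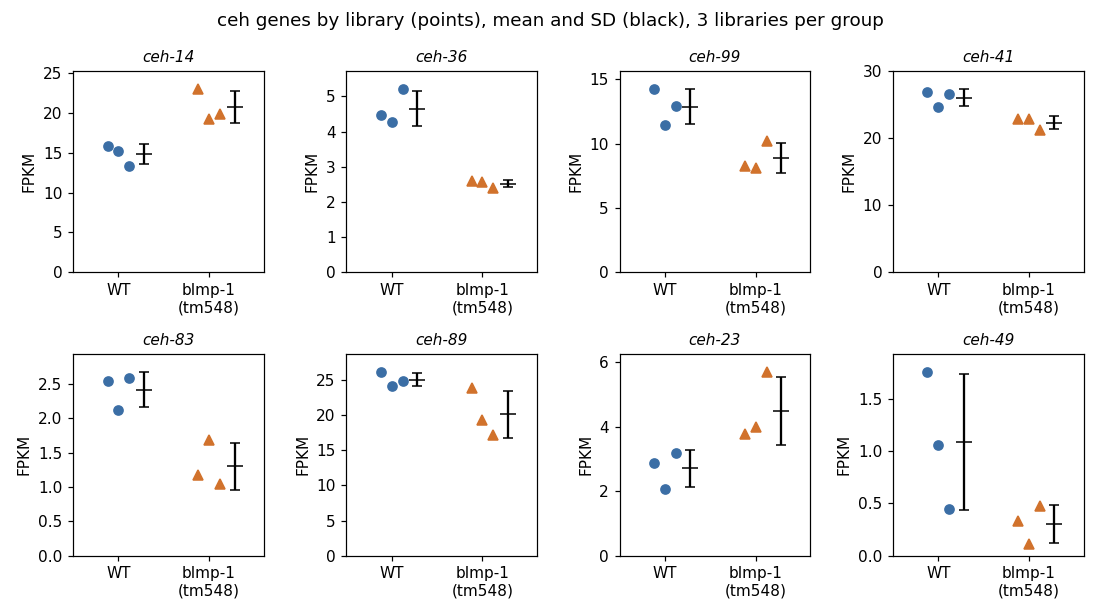
FPKM per library of 8 ceh genes, the 7 with an unadjusted p under 0.05 and the untested ceh-49, with the mean and SD of the 3 libraries of a group in black and axes from 0. The points of WT and mutant do not overlap in the first 7 panels, and none of these passed the adjusted threshold.

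The POU gene ceh-18 (ZC64.3) acts in the sheath cells of the gonad, which hold and release oocyte maturation. It was at 61.1, 57.3 and 57.6 FPKM in WT and at 58.1, 56.7 and 61.6 FPKM in the mutant, with overlapping groups (interval -0.13 to 0.14, adjusted p = 0.983). The POU gene ceh-6 (K02B12.1), needed in the excretory system and in some neurons, was at 11.4, 10.3 and 11.1 FPKM in WT and at 10.1, 8.43 and 9.52 FPKM in the mutant. Each mutant library was below each WT library (log2 difference -0.21, interval -0.50 to 0.09, adjusted p = 0.375). Of the 3 sine oculis-like genes, the class drawn under its vertebrate name in the plot of differences, none passed. The gene ceh-32 (W05E10.3), a homolog of SIX3 that acts in the anterior embryo, was at 28.8 ± 0.734 and 28.4 ± 0.714 FPKM (interval -0.17 to 0.13, adjusted p = 0.902). The neighbours ceh-34, which sets the identity of pharyngeal neurons, and ceh-33 had means of 23.9 and 5.84 FPKM. The mutant minus WT values were -0.22 for ceh-34 (adjusted p = 0.253) and -0.17 for ceh-33 (adjusted p = 0.588), on the log2 scale.

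Of 15 NK-like genes 12 were tested, 6 with a positive and 6 with a negative log2 difference, and none passed. The gene ceh-22 (F29F11.5), a homolog of Nkx2-5, drives genes of the pharyngeal muscle and is needed for the distal tip cells that lead the growing gonad. It was at 10.8, 15.04 and 14.9 FPKM in WT and at 10.9, 12.6 and 14.7 FPKM in the mutant. The lowest value was that of replicate 1 in both groups, which overlapped (interval -0.50 to 0.35, adjusted p = 0.841). The Distal-less homolog ceh-43 (C28A5.4), which acts in the anterior epidermis and in dopaminergic neurons, was at 21.4 ± 2.21 and 20.99 ± 0.884 FPKM (interval -0.26 to 0.22, adjusted p = 0.931). For both genes the difference was smaller than the SD of either group.

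The ends of the NK-like range were ceh-23 and ceh-5. The gene ceh-23 (ZK652.5), made in the AIY interneuron and a few other neurons, was at 2.89, 2.06 and 3.19 FPKM in WT and at 3.77, 4.01 and 5.69 FPKM in the mutant. These were 24, 16 and 26 reads against 31, 33 and 44 reads, and the groups did not overlap. The log2 difference of ceh-23 was 0.56 (SE 0.229, interval 0.01 to 1.12, adjusted p = 0.216). With 1 library left out the difference of ceh-23 ran from 0.41 (without mutant replicate 3) to 0.65. The gene ceh-5 (C16C2.1), a Vax homolog, was at 23.4, 14.1 and 13.1 FPKM in WT and at 11.8, 11.5 and 10.4 FPKM in the mutant. WT replicate 1 stood far above the other libraries, with 80 reads against 33 to 45. The log2 difference of ceh-5 was -0.50 (adjusted p = 0.244) and without WT replicate 1 it was -0.26 (adjusted p = 0.323). Without WT replicate 3 the difference of ceh-5 was -0.65. The BarH pair of neighbours, ceh-30 and ceh-31, had close levels, with means of 4.41 and 6.33 FPKM. In ceh-31 each mutant library (6.38, 6.49 and 6.55 FPKM) was above each WT library (6.31, 6.04 and 6.20 FPKM), with a log2 difference of 0.06 (adjusted p = 0.834). The groups of ceh-30, known for the survival of male-specific CEM neurons, overlapped. The gene ceh-1 (F16H11.4) was at 3.55, 3.79 and 4.73 FPKM in WT and at 4.42, 2.76 and 2.06 FPKM in the mutant, from 43 and 33 reads in all. Its groups overlapped (log2 difference -0.34, interval -0.98 to 0.30, adjusted p = 0.510). The difference of ceh-1 was -0.15 without mutant replicate 3 and -0.56 without mutant replicate 1. Among the other NK-like genes ceh-27 had the highest mean of the class at 23.8 FPKM, and ceh-24, a gene of the vulval muscles, was at 6.56 ± 1.28 and 7.63 ± 1.03 FPKM. The groups of ceh-2, ceh-9, ceh-19, ceh-24 and ceh-27 overlapped, with adjusted p of 0.578 to 0.953. The Mnx gene ceh-12, which acts in VB motor neurons, was at 2.85 ± 1.15 and 2.998 ± 1.06 FPKM (adjusted p = 0.933).

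Among the 22 genes without a class 17 were tested and none passed. The values of ceh-99 (T21B4.17) were 14.2, 11.5 and 12.9 FPKM in WT and 8.30, 8.14 and 10.2 FPKM in the mutant. Each mutant library was below each WT library, with 187, 141 and 167 reads against 108, 106 and 125 reads. The log2 difference of ceh-99 was -0.49 (SE 0.142, interval -0.84 to -0.15, adjusted p = 0.105). The values of ceh-83 (F45C12.15) were 2.54, 2.12 and 2.59 FPKM in WT and 1.17, 1.69 and 1.04 FPKM in the mutant (log2 difference -0.58, interval -1.12 to -0.04, adjusted p = 0.196). The groups of ceh-83 did not overlap either. For ceh-89 (F28H6.2) they were 26.1, 24.2 and 24.9 FPKM in WT and 23.8, 19.4 and 17.2 FPKM in the mutant, where the spread was 3.39 FPKM (SD) against 0.9754 in WT (adjusted p = 0.214). The highest of the mutant values was just below the lowest WT one. Of the other genes named for their size of difference, ceh-86 (3.44, 1.66 and 1.87 against 4.19, 4.19 and 2.18 FPKM) and ceh-53 (1.58, 3.38 and 3.21 against 3.87, 2.27 and 4.36 FPKM) had overlapping groups. Their log2 differences were 0.44 and 0.28 (adjusted p = 0.460 and 0.638). With 1 library left out that of ceh-86 ran from 0.30 (without WT replicate 2) to 0.68 (without mutant replicate 3). That of ceh-53 ran from 0.04 (without WT replicate 1) to 0.50 (without mutant replicate 2).

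Of the genes without a class, ceh-88, ceh-100, ceh-79 and ceh-93 had the highest means. The gene ceh-88 (C49C3.5) was at 43.96, 42.3 and 36.4 FPKM in WT and at 46.7, 42.8 and 36.2 FPKM in the mutant. Its lowest value was that of replicate 3 in both groups (interval -0.25 to 0.31, adjusted p = 0.906). The gene ceh-100 (Y38E10A.6) was at 26.2, 30.3 and 35.6 FPKM in WT and at 33.7, 36.8 and 33.9 FPKM in the mutant, with overlapping groups (log2 difference 0.19, interval -0.10 to 0.47, adjusted p = 0.406). Single libraries moved this value of ceh-100, to 0.08 without WT replicate 1 and to 0.30 without WT replicate 3. Values of ceh-79 and ceh-93 were 26.4 ± 0.558 and 25.9 ± 1.67 FPKM in WT and 25.5 ± 2.39 and 25.7 ± 2.63 FPKM in the mutant (adjusted p = 0.767 and 0.948). In both genes the lowest library was mutant replicate 3. The genes ceh-91 and ceh-92 had a mean of 16.3 ± 1.71 and 15.2 ± 2.60 FPKM in WT and of 19.6 ± 1.71 and 18.2 ± 1.23 FPKM in the mutant. Their groups overlapped, and ceh-91 was called with library weights alone (adjusted p = 0.0314, against 0.248 without them).

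**Figure D4:**
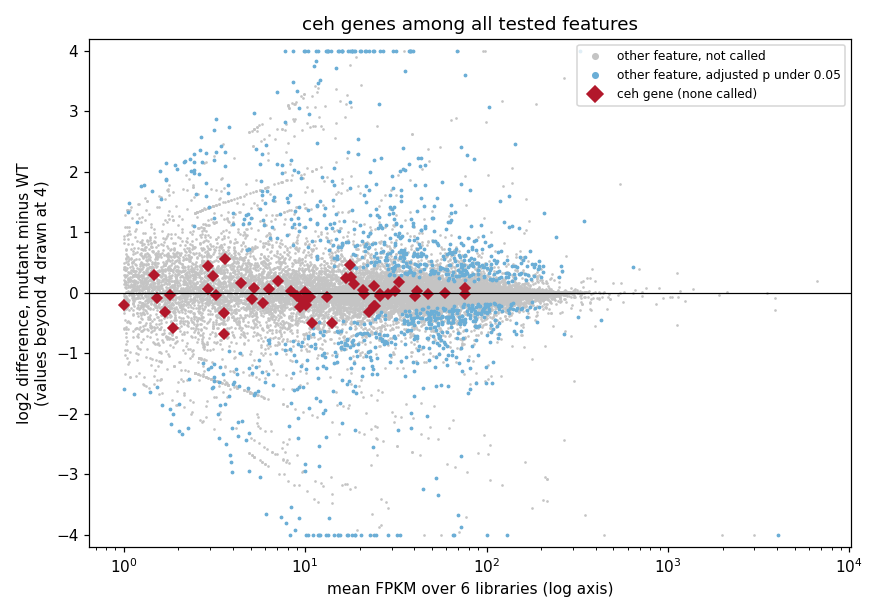
Log2 difference of mutant minus WT against the mean FPKM (log axis) for all 17058 tested features, with the 51 ceh genes as diamonds and other features that passed the adjusted threshold in blue. The ceh genes lie within -0.68 and 0.56 and none passed.

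Of the 9 untested genes, 2 were above 0 in all libraries, ceh-49 and ceh-51, and 4 were above 0 in 1 library. The gene ceh-51 (Y80D3A.3), an embryonic factor of the mesoderm, had 2, 1 and 1 reads in WT and 1, 1 and 4 reads in the mutant. The NK-like gene ceh-7 (C34C6.8) was at 1.77 FPKM in WT replicate 3 and listed at 0 in the other libraries. The genes ceh-28, of the M4 pharyngeal neuron, ceh-75, ceh-76, ceh-81, ceh-87 and ceh-90 had means of 0.0336 to 0.0957 FPKM. These genes were below the filter, so the main fit did not test them for a difference between genotypes.

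The X chromosome held 17 of the 60 (28.3%), against 13.9% of protein-coding genes above 0, and chromosome IV held 4 (6.67% against 16.4%). Between them 10 members formed 5 pairs of direct neighbours among protein-coding genes: ceh-57 with ceh-58, ceh-33 with ceh-34, ceh-21 with ceh-41, ceh-30 with ceh-31, and ceh-36 with ceh-37. Neighbours did not have equal levels, since the higher mean of a pair was 1.43 to 12.3 times the lower. The largest ratio was that of ceh-58 (20.8 FPKM) to ceh-57 (1.68 FPKM).

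Homeobox genes with other names were counted in the same way. Of 39 such genes, written down from general knowledge, all were tested and none passed, against 6.40% of all features. At an unadjusted p under 0.05 there were 2 (5.13%, against 23.0% of all features). Their median level was 19.05 FPKM and their median log2 difference 0.11. The groups did not overlap for 6 of them (15.4%, against 28.7%). No difference between these shares, or from those of the ceh genes, was tested. The zinc-finger homeobox gene zfh-2 (ZC123.3) was at 34.4, 33.5 and 33.7 FPKM in WT and at 38.3, 39.97 and 39.1 FPKM in the mutant (log2 difference 0.20, adjusted p = 0.0855). The gene dsc-1 (C18B12.3), which acts in the defecation rhythm, had the largest difference of the 39. It was at 1.87, 1.86 and 2.31 FPKM in WT and at 2.97, 3.51 and 5.03 FPKM in the mutant (log2 difference 0.66, interval 0.10 to 1.22, adjusted p = 0.157). Each mutant library of zfh-2 and of dsc-1 lay above each WT library. The Hox genes lin-39 and mab-5, which pattern the mid-body, were at 36.3 ± 0.970 and 26.7 ± 1.92 FPKM in WT and at 40.5 ± 3.33 and 31.2 ± 4.19 FPKM in the mutant (adjusted p = 0.296 and 0.334). For lin-39 and mab-5 the groups overlapped.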

How the data were processed

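The deposited table holds FPKM values per feature for 3 WT and 3 blmp-1(tm548) libraries of mid-L3 larvae; the submitters' processing notes name TopHat2 2.0.7, Cufflinks 2.0.2 and Cuffdiff, and the genome build is not given in the sources used here. Of 45343 features 44031 were matched to RefSeq names (WBcel235) by sequence name. Features with a mean of at least 1 FPKM (17058) were tested with limma 3.58.1 in R 4.3.3 on log2(FPKM + 1), with a trended prior and Benjamini-Hochberg adjustment over all of them, at 0.05. The fit was tried on simulated counts with changes put only into features above a minimum of expected reads. Its reach for low genes was not tested. With 3 libraries against 3 an exact permutation test cannot go below p = 0.1 and was not used. Reads behind a value were recovered from whole steps, up to a common factor per gene. Genes were named as follows: the 12 highest, the 5 largest differences each way, 11 set genes and the 3 highest untested ones. Others, such as ceh-31, ceh-33, ceh-34, ceh-89, ceh-91, ceh-92 and the homeobox genes with other names, were named after their values were seen. The members and lists were chosen with earlier results of these data known. Alternatives covered pseudocount, filter, scaling, weights, block and left-out libraries.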

Additional observations from a re-analysis of the deposited data

How the results depend on the processing

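No ceh gene passed in 13 of the 15 alternatives, all 6 that leave out a library included. Library weights called 4117 of 17058 features, with 4 ceh genes higher and 2 lower and 2 homeobox genes with other names (irx-1 and zfh-2). Testing protein-coding genes of at least 300 nt alone called 1232 of 14974, with 1 ceh gene lower. Leaving out 1 library gave 368 to 1331 called features, against 1092: 368 without WT replicate 2, 694 without WT replicate 3, 414 without mutant replicate 1, 399 without mutant replicate 2 and 1331 without mutant replicate 3. The cause was not tested. The median log2 difference of the ceh genes was -0.0493 with median centring and -0.0305 to -0.00029 with a library left out. Among 27 named genes 9 changed sign under some setting, all of them with a small difference. With library weights these were ceh-44 (0.01), ceh-79 (0.02) and ceh-93 (0.1), with quantile normalization ceh-44 (0.00033), and with median centring ceh-18 (-0.03). With a library left out the ranges were -0.03 to 0.03 for ceh-18, -0.22 to 0.02 for ceh-22, -0.04 to 0.00044 for ceh-32, -0.03 to 0.1 for ceh-37, -0.1 to 0.04 for ceh-43, -0.03 to 0.02 for ceh-44, -0.09 to 0.02 for ceh-79, -0.05 to 0.13 for ceh-88 and -0.07 to 0.07 for ceh-93. A minimum mean of 5 FPKM left 37 ceh genes to test, and no filter left 60.

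Whether replicate numbers mark samples grown together is not stated. Deviations from the group means correlated at 0.13, -0.035 and 0.070 between WT and mutant libraries of the same number. Between those of unlike number they correlated at -0.14 to 0.056, and these few values cannot settle a pairing. With the replicate block 929 features and no ceh gene were called, and the lowest adjusted p of a ceh gene was 0.0753.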
